A study of Homo sapiens with 4 samples.

Results

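Transcripts of 7 genes that write, maintain or remove methyl groups on DNA were measured in BEAS-2B, an immortalised human cell line grown from bronchial epithelium. The genes were chosen by name, as the DNA methyltransferases DNMT1, DNMT3A and DNMT3B, the maintenance cofactor UHRF1 and the dioxygenases TET1, TET2 and TET3, and all 7 were found among the 25411 genes in the tables. Cells were grown for 72 h with 5 µM cadmium chloride (2 libraries) or as controls for 72 h (2 libraries). The labels put both cadmium libraries under experiment 2 and both controls under experiment 1, so experiment and treatment cannot be told apart if these were separate experiments. Whether replicates came from separate cultures is not labelled, and p-values therefore measure spread among these libraries alone, which may be technical. Both groups are this 1 line in culture, which lacks the other cell types of the bronchus.

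DNA methylation in mammals sits mostly on cytosines that precede a guanine. DNMT3A and DNMT3B place new methyl groups, and DNMT1 copies existing ones onto the new strand after replication, guided by UHRF1, which binds hemimethylated DNA and ubiquitylates histone H3. The TET enzymes use oxygen, iron and 2-oxoglutarate to oxidise 5-methylcytosine, and the oxidised bases are lost through replication or cut out by the glycosylase TDG. Cadmium is a metal for which effects on DNA methylation have been described in cell culture. The title of the study names SNAIL1 and a microRNA, and the labels do not state a question about DNA methylation.

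Of the 7 genes, UHRF1 fell with cadmium, 0 rose and 6 did not pass the test. The test was edgeR's quasi-likelihood test, adjusted by Benjamini-Hochberg over 13663 genes with a threshold of 0.05, and all 7 members passed the filter on low counts. Over all genes tested, 7.66% were called lower and 8.85% higher, so 53.6% of the calls were higher, and 67.9% were when libraries were scaled by their total alone. No member differed by more than 0.43 on the log2 scale, and the median log2 fold change was -0.086 over the members, beside 0.00189 over all genes tested. In CPM, reads scaled to library size with TMM factors, the cadmium and control libraries did not overlap for 4 members, UHRF1 and TET3 (both lower) and DNMT3A and DNMT3B (both higher). Such separation was common, since 62.1% of all tested genes had groups that did not overlap, 30.8% lower and 31.3% higher with cadmium. The log2 fold change of UHRF1 was -0.33 without cadmium replicate 1, and that of TET3 was -0.51 without control replicate 1. Cells of different states are averaged in these libraries, so fewer cells with a transcript and less transcript per cell cannot be told apart.

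**Figure D1:**
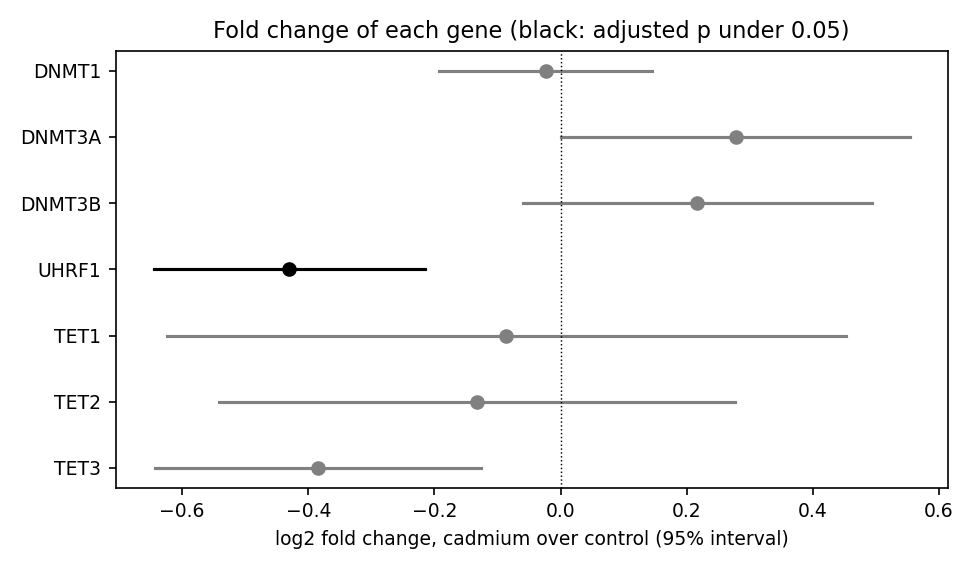
Log2 fold change of each gene, cadmium over control, with its 95% interval from the edgeR fit (2 libraries per group); black marks an adjusted p under 0.05. Of the 7 intervals, those of UHRF1 and TET3 lie below 0 and that of DNMT3A begins at 0.0014, while only UHRF1 passed after adjustment over all genes.

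The libraries held 29937242 and 15537382 reads in genes in the cadmium group and 26529403 and 8609243 in the controls, so control replicate 2 was the shallowest. MT2A, a metallothionein gene that cells switch on in the presence of cadmium and zinc, had 3596 and 3315 CPM with cadmium, against 277 and 378 CPM in control (log2 fold change 3.40, adjusted p = 0.000567). The keratin genes KRT8 and KRT18, markers of simple epithelium, stood between 204 and 649 CPM in all 4 libraries, while KRT5, KRT14 and TP63, markers of basal airway cells, had at most 1 read in any library. Other epithelial markers were low. KRT19 had 7 and 3 reads with cadmium and 1 and 0 in control, and CDH1 had 28 and 15 with cadmium and 11 and 1 in control. EPCAM stood at 5.94 and 5.06 CPM with cadmium and 2.04 and 2.38 CPM in control. Epithelial EPCAM rose by 1.36 on the log2 scale (adjusted p = 0.0131), but did not pass without cadmium replicate 1 (0.0994). Of 5 leukocyte markers, CD3E had 0 reads in every library and PTPRC at most 2, CD14 had 344 and 117 reads with cadmium and 177 and 96 in control, and ITGAM, with 30 and 14 reads with cadmium and 8 and 2 in control, rose (adjusted p = 0.0490). The summed level of these 5 was 6.66 and 4.43 RPKM with cadmium and 3.93 and 6.54 RPKM in control, and the ITGAM call was lost in each of the 4 fits without 1 library (adjusted p from 0.0648 to 0.311). Of 4 endothelial markers, PECAM1 had 0 reads in every library, CDH5 at most 1 and KDR at most 3. The fourth, VWF, had 12 and 9 reads with cadmium and 5 and 3 in control. Among ciliated or secretory markers, FOXJ1, SCGB1A1 and MUC5B had at most 1 read in any library. TPPP3 had 44 and 12 reads with cadmium and 12 and 6 in control, and did not pass (adjusted p = 0.160, edgeR). Of 5 fibroblast markers, the collagen gene COL1A1 was abundant, with 3263 and 3068 CPM in cadmium libraries and 4379 and 3538 CPM in controls, and did not pass (adjusted p = 0.0690). The other 4 were near absent, with 36 and 19 reads with cadmium and 58 and 10 in control for COL1A2, 12 and 6 with cadmium and 5 and 1 in control for LUM, at most 1 read for PDGFRA and 0 reads in every library for DCN. Of 4 tested RNAs that stay in the nucleus and can reflect RNA quality, MALAT1, NEAT1 and MIAT rose with cadmium. The summed RPKM of that list was 248 and 253 with cadmium and 139 and 178 in control, and its part in the results on DNA methylation genes was not tested. MIAT and NEAT1 did not pass without cadmium replicate 1 (adjusted p ranging from 0.057 to 0.175) or without cadmium replicate 2 (0.0581 to 0.0912), and MIAT did not without control replicate 1 (log2 fold change 0.84, against 1.69 with all libraries, adjusted p = 0.205) or with DESeq2 (0.0898).

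The row of UHRF1 merges 5 transcripts. It carries the hg19 position chromosome 19, 4910379 to 4962165, plus strand, which need not span them all. UHRF1 had 3546 and 2108 reads in cadmium replicates 1 and 2, and 4380 and 1407 reads in control replicates 1 and 2. Scaled to depth, these were 116 and 133 CPM in the cadmium libraries, against 168 and 167 CPM in the controls. Both cadmium libraries lay below both controls, and the gap between the cadmium libraries was wider than that between the controls. The mean was 125 ± 12.4 CPM with cadmium and 168 ± 0.794 CPM in control (SD, n = 2 each). This was a fall of 25.8% (log2 fold change -0.43, SE 0.094, 95% interval -0.64 to -0.22, adjusted p = 0.0203, edgeR). The value was -0.33 without cadmium replicate 1, the lower of the 2 cadmium libraries, and did not pass (adjusted p = 0.190). In the authors' deposited table UHRF1 averages 28.1 RPKM with cadmium and 37.0 RPKM in control (log2 ratio -0.41, adjusted p = 0.00355).

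DNMT1, the methyltransferase that UHRF1 brings to newly replicated DNA, lies on the minus strand of chromosome 19 (10244022 to 10305755 in hg19) and had 15401 and 8041 reads in the cadmium libraries and 13195 and 4393 in the controls. Its level was 503 and 509 CPM with cadmium, against 507 and 522 CPM in control, and the groups overlapped. The log2 fold change was -0.024 (SE 0.074, adjusted p = 0.855), with a 95% interval from -0.19 to 0.14. Its sign depended on the scaling, with 0.035 when libraries were scaled by their total alone and 0.015 under a stricter filter on low counts. The interval is the narrowest among the 7 genes and holds no change beyond a factor of 0.876 to 1.11.

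Inside each library, UHRF1 could be set against DNMT1 without any scaling between libraries. The RPKM of UHRF1 was 0.313 and 0.356 times that of DNMT1 in the cadmium libraries, against 0.450 and 0.435 times in the controls. Both cadmium ratios lay below both control ratios, and the difference was -0.41 on the log2 scale. With 2 libraries against 2, the exact two-sided permutation test cannot go below its value here, p = 0.333. Against PCNA, the sliding clamp of replication forks, UHRF1 stood at 0.105 and 0.123 with cadmium and 0.153 and 0.144 in control. DNMT1 stood at 0.336 and 0.345 times PCNA with cadmium and 0.339 and 0.331 times in control, with overlapping groups.

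UHRF2, a paralog of UHRF1 that also binds methylated DNA and carries a RING domain, changed the other way. It had 50.2 and 51.3 CPM with cadmium, against 37.5 and 30.2 CPM in control (log2 fold change 0.57, SE 0.12, adjusted p = 0.0205, edgeR). The ratio of UHRF1 to UHRF2 in RPKM was 2.12 and 2.39 in the cadmium libraries and 4.11 and 5.06 in the controls, a difference of -1.02 on the log2 scale (exact two-sided permutation p = 0.333, the smallest that 2 against 2 allow). UHRF1 was the more abundant of the pair per length in all 4 libraries. UHRF2 did not pass without cadmium replicate 1 or without cadmium replicate 2, as given with the other partners of maintenance methylation.

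**Figure D2:**
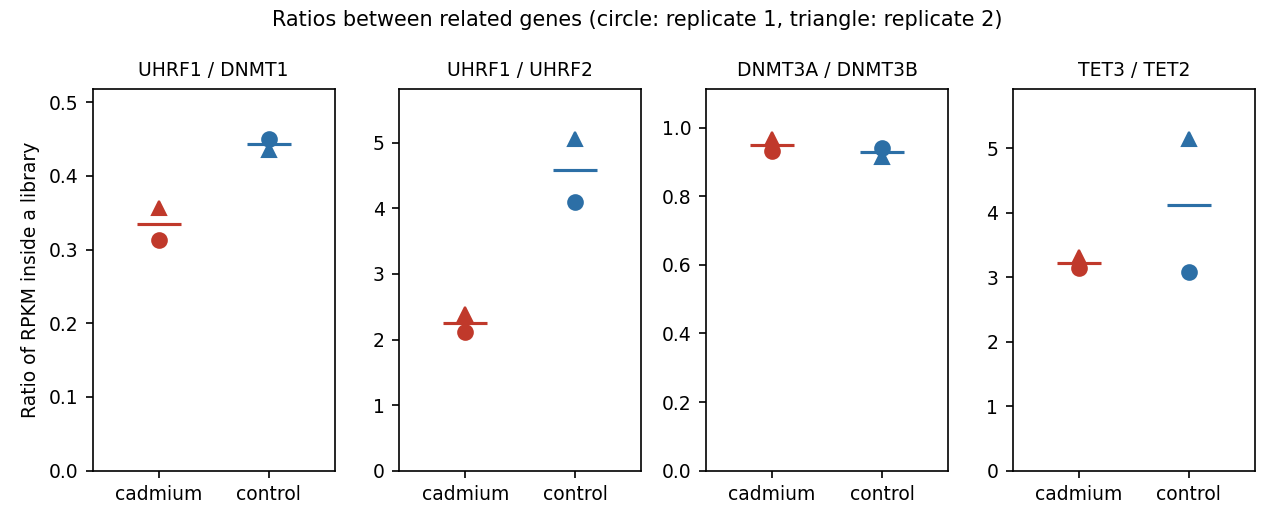
Ratio of the RPKM of 2 related genes inside each library (y axes from 0), with cadmium libraries in red on the left and controls in blue on the right; circles are replicate 1, triangles replicate 2 and bars the mean of 2. UHRF1 relative to DNMT1 and to UHRF2 is lower in both cadmium libraries, while the ratio of DNMT3A to DNMT3B lies between 0.915 and 0.968 in all 4, and TET3 relative to TET2 overlaps between the groups.

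UHRF1 and DNMT1 are both known as targets of E2F factors, which drive S phase genes. Their start regions were therefore read from RefSeq (GRCh38.p14, from 250 bases before to 50 bases after an annotated start) and are shown because 1 of these genes fell and the other did not pass. Capitals mark matches to the E2F consensus, searched on both strands as TTTCCCGC, TTTCGCGC, TTTGCCGC and TTTGGCGC.
UHRF1, chr19:4909251-4909550, plus strand: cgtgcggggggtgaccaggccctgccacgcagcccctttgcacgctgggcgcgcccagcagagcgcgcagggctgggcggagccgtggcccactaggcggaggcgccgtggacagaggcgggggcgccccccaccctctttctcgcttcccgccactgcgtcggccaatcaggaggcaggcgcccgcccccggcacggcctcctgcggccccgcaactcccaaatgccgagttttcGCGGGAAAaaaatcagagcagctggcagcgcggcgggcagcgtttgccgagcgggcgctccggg
UHRF1, chr19:4909894-4910193, plus strand: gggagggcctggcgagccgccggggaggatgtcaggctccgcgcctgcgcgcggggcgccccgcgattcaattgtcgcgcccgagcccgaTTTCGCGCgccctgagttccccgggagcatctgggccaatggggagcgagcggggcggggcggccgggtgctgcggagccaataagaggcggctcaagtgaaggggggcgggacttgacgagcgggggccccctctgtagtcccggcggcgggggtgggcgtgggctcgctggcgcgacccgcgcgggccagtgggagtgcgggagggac
DNMT1, chr19:10194904-10195203, minus strand: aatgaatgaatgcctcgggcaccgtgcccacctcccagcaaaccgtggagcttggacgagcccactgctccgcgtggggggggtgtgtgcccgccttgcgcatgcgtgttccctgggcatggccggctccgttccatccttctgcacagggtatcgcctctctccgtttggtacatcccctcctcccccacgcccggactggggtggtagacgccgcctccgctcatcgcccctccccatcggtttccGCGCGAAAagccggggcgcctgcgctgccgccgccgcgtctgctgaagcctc
These UHRF1 windows hold 1 match each and so does the DNMT1 window, beside a match in 3.30% of 34943 RefSeq windows of this length. The third UHRF1 window and the 14 windows of the other 5 genes hold none of these letters. The metal response element core, searched as TGCACNC and TGCGCNC on both strands, occurs in 7 of the 18 windows of the 7 genes and in 29.5% of all windows. The 2 DNMT3A windows with a core overlap and share the same site, so the 18 windows are not independent. The DNMT1 window holds no such core and 2 of the 3 UHRF1 windows do. The windows hold between 3 and 46 CpG dinucleotides, the fewest in the 1 window of DNMT3B, beside a median of 14 over all windows. The DNMT3B row merges 6 transcripts, and other starts of that gene may lie outside this window. A match is a description of the letters and does not show that a factor binds there.

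DNMT3A and DNMT3B, the enzymes of de novo methylation, were both higher in the cadmium libraries without passing the test. The row of DNMT3A merges 4 transcripts. It carries the position chromosome 2, 25504321 to 25565459, minus strand, which need not span them all. DNMT3A had 825 and 444 reads with cadmium and 564 and 202 in control. Its level was 26.9 and 28.1 CPM with cadmium, against 21.7 and 24.0 CPM in control, so the groups did not overlap. The log2 fold change was 0.28 (SE 0.12, 95% interval 0.0014 to 0.55, adjusted p = 0.145, unadjusted p = 0.0491, edgeR). The row of DNMT3B merges 6 transcripts. It carries the position chromosome 20, 31367658 to 31397162, plus strand, which need not span them all. DNMT3B had 28.8 and 29.2 CPM with cadmium, from 883 and 462 reads, against 23.5 and 26.8 CPM in control, from 612 and 226 reads. Its log2 fold change was 0.22 (SE 0.12, 95% interval -0.060 to 0.49, adjusted p = 0.247). Without control replicate 1 the values were 0.19 for DNMT3A and 0.11 for DNMT3B. The authors' deposited table gives log2 ratios of 0.24 for DNMT3A and 0.19 for DNMT3B, with adjusted p of 0.321 and 0.469.

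The balance between the de novo enzymes was nearly even. DNMT3A made up 48.2% and 49.2% of the summed RPKM of DNMT3A and DNMT3B in the cadmium libraries, and 48.5% and 47.8% in the controls, with overlapping groups. DNMT1 made up 87.3% and 87.1% of the summed RPKM of the 3 methyltransferases with cadmium, against 89.4% and 88.5% in control. Both cadmium shares lay below both control shares, with means of 87.2% ± 0.162 with cadmium and 89.0% ± 0.641 in control (SD, n = 2 each). The shares themselves were not tested, and none of the 3 genes passed the test. Reads from DNMT3A were summed over 4 RefSeq transcripts and reads from DNMT3B over 6, so isoforms cannot be told apart. DNMT3L, the catalytically inactive partner of both enzymes, had 12 and 8 reads with cadmium and 2 and 2 in control, too few to pass the filter.

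TET3 (chromosome 2, 74213531 to 74335302, plus strand) had the highest level per length of the 3 TET genes and was lower with cadmium, just short of the threshold. It had 1710 and 972 reads with cadmium and 1833 and 702 in control. These were 55.9 and 61.5 CPM with cadmium, against 70.4 and 83.4 CPM in control, with no overlap. The log2 fold change was -0.38 (SE 0.11, 95% interval -0.64 to -0.13, adjusted p = 0.0517, unadjusted p = 0.00875, edgeR). It passed when no filter on low counts was set (adjusted p = 0.0111) and when control replicate 1 was left out (-0.51, adjusted p = 0.0147). DESeq2 (0.0511) and limma-voom (0.0547) placed it just outside. It did not pass without cadmium replicate 1 (-0.31, adjusted p = 0.299), without cadmium replicate 2 (-0.45, 0.0979), without control replicate 2 (-0.27, 0.0843) or with libraries scaled by their total alone (-0.33, 0.0839). In the authors' deposited table the log2 ratio of TET3 is -0.36 (adjusted p = 0.0424).

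TET2 (chromosome 4, 106067842 to 106200960, plus strand), the TET gene often mutated in blood cancers, had 466 and 251 reads with cadmium and 509 and 116 in control. Its level was 15.2 and 15.9 CPM with cadmium, against 19.6 and 13.8 CPM in control. The controls lay on either side of both cadmium libraries. The log2 fold change was -0.13 (SE 0.18, 95% interval -0.54 to 0.28, adjusted p = 0.646). It was -0.34 without control replicate 2 and 0.17 without control replicate 1, so its sign rested on the controls.

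TET1 (chromosome 10, 70320117 to 70454239, plus strand), best known from embryonic stem cells, had the fewest reads, 143 and 93 with cadmium and 131 and 53 in control. These were 4.67 and 5.89 CPM with cadmium, against 5.03 and 6.30 CPM in control, with overlapping groups. For control replicate 2 the exact 95% Poisson interval ran from 4.72 to 8.23 CPM, which covers counting error only. The log2 fold change was -0.086 (SE 0.24, 95% interval -0.62 to 0.45, adjusted p = 0.834), the widest interval among the 7 genes. It turned to 0.082 without cadmium replicate 1 and 0.042 without control replicate 2.

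Within the TET family, TET3 made up 70.5% and 70.6% of the summed RPKM in the cadmium libraries and 71.0% and 77.9% in the controls. TET2 made up 22.5% and 21.3% with cadmium and 23.0% and 15.1% in control, and TET1 made up 7.01% and 8.03% with cadmium and 6.03% and 6.99% in control. The groups overlapped for TET1 and TET2. The ratio of TET3 to TET2 in RPKM was 3.14 and 3.31 with cadmium and 3.08 and 5.15 in control. The TET3 shares of both controls lay above both cadmium shares, but control replicate 1 did so by less than 1 percentage point.

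Levels between genes were compared in RPKM, the authors' value per transcript length and library depth. DNMT1 was the most abundant in every library, with 83.9 RPKM in both cadmium libraries and 82.3 and 84.7 RPKM in controls. UHRF1 came next, with 26.3 and 29.9 RPKM with cadmium and 37.1 and 36.9 RPKM in control. DNMT3B stood at 6.31 and 6.33 RPKM with cadmium, DNMT3A at 5.88 and 6.12 RPKM and TET3 at 4.39 and 4.78 RPKM. In controls TET3 stood at 5.39 and 6.38 RPKM, DNMT3B at 5.02 and 5.74 RPKM and DNMT3A at 4.72 and 5.25 RPKM. Inside each control library the order was TET3, then DNMT3B, then DNMT3A. Across the controls, DNMT3B overlapped with TET3 above it and with DNMT3A below it, while TET3 and DNMT3A did not overlap. With cadmium the 3 did not overlap, and TET3 was the lowest. TET2, at 1.40 and 1.44 RPKM with cadmium and 1.75 and 1.24 RPKM in control, and TET1, at 0.436 and 0.543 RPKM with cadmium and 0.457 and 0.572 RPKM in control, were the lowest in every library.

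**Figure D3:**
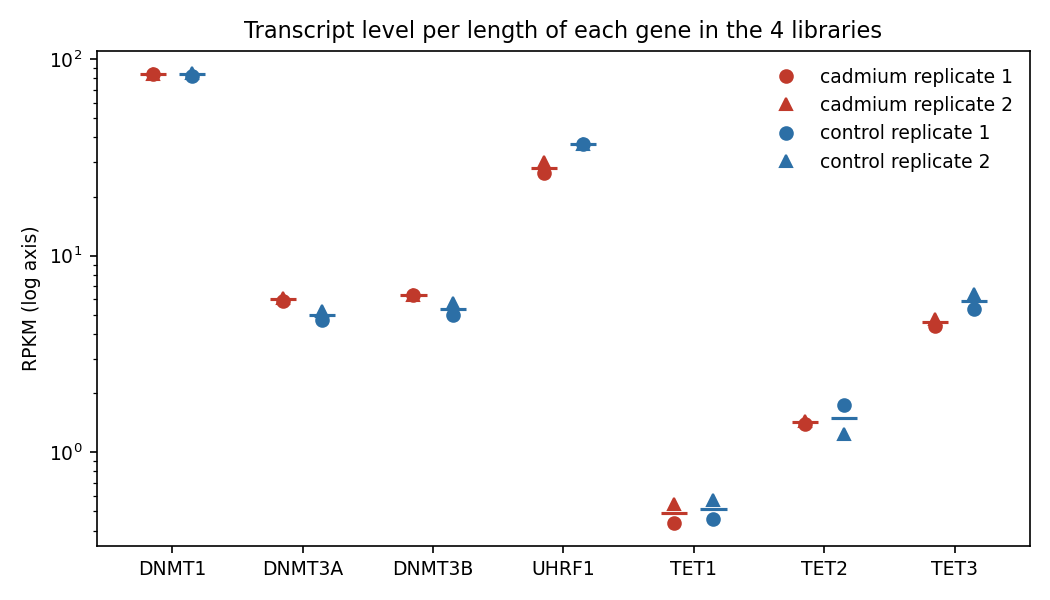
RPKM (log axis) of each gene in the 4 libraries, cadmium in red left of control in blue, with circles for replicate 1, triangles for replicate 2 and bars for the mean of 2. The genes span from TET1, between 0.436 and 0.572 RPKM, to DNMT1, between 82.3 and 84.7 RPKM. The groups do not overlap for UHRF1, TET3, DNMT3A and DNMT3B, as in CPM, where 62.1% of all tested genes had groups apart.

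Other genes of the pathway were read from lists chosen by function, with earlier results of these data known. The counts in each list stand beside 8.85% called higher and 7.66% called lower over all genes tested. Of 13 genes tested that act with DNMT1 and UHRF1 in maintenance methylation, 2 rose, 1 fell and 10 did not pass, and the median log2 fold change was -0.021. UHRF2 rose, as above, and EHMT2, a histone H3 lysine methyltransferase, rose to 166 and 170 CPM with cadmium, against 132 and 119 CPM in control (log2 fold change 0.42, adjusted p = 0.0179). HDAC1, a histone deacetylase that binds DNMT1, had 158 and 157 CPM with cadmium, against 186 and 203 CPM in control (log2 fold change -0.30, adjusted p = 0.0436), and fell. The remodeler HELLS (0.24, adjusted p = 0.175), the deubiquitinase USP7 (-0.021, adjusted p = 0.917) and PCNA (-0.053, adjusted p = 0.667) did not pass. The calls of UHRF2, EHMT2 and HDAC1 were lost without cadmium replicate 1 (adjusted p between 0.0723 and 0.218) and without cadmium replicate 2 (between 0.0685 and 0.221). HDAC1 also missed the threshold without control replicate 2 (0.0631), with libraries scaled by their total alone (0.0820) and with the stricter filter (0.0628).

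Among 10 tested genes that guide or accompany de novo methylation, TRIM28, a corepressor that KRAB zinc finger proteins bring to chromatin, fell (log2 fold change -0.34, adjusted p = 0.0205), 0 rose and 9 did not pass. TRIM28 did not pass without cadmium replicate 1 (adjusted p = 0.120) or without cadmium replicate 2 (0.118). The list median was -0.00080. The histone methyltransferases NSD1 (-0.21, adjusted p = 0.132) and SETD2 (0.049, adjusted p = 0.753) did not pass.

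Of 10 tested genes of the MBD family and the zinc finger proteins that bind methylated CpG, MBD3 fell, 0 rose and 9 did not pass, with a list median of 0.067. MBD3, a subunit of the NuRD remodeling complex whose mammalian protein does not bind methylated CpG selectively, had 340 and 320 CPM with cadmium, against 525 and 517 CPM in control (log2 fold change -0.66, SE 0.077, adjusted p = 0.00349, edgeR). MBD3 passed in each of the 4 fits that left out 1 library, with log2 fold changes from -0.70 to -0.61. MBD2 (-0.20, adjusted p = 0.181), which binds methylated DNA in a repressor complex, did not pass.

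The methyl donor of DNMT enzymes is S-adenosylmethionine. Of 12 tested genes of the methionine cycle, 2 rose, 1 fell and 9 did not pass, with a list median of 0.079. MAT2A, which makes S-adenosylmethionine, fell (log2 fold change -0.35, adjusted p = 0.0390). AHCYL2, a relative of the hydrolase AHCY, rose by 0.50 (adjusted p = 0.0395). The calls of MAT2A and AHCYL2 were lost without cadmium replicate 1 (adjusted p of 0.148 for MAT2A and 0.222 for AHCYL2), without cadmium replicate 2 (0.164 and 0.165) and without control replicate 1 (0.113 and 0.125). Without control replicate 1 the log2 fold change of MAT2A was -0.23. MAT2A also missed the threshold with libraries scaled by their total alone (0.0707) and with the stricter filter (0.0566), and AHCYL2 with DESeq2 (0.0670).

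Downstream of the TET enzymes, 1 of 16 tested genes of demethylation and base excision fell, 0 rose and 15 did not pass, with a list median of -0.054. The gene that fell was TDG, whose product excises the oxidised bases that TET enzymes make. It had 26.7 and 26.6 CPM with cadmium, against 40.1 and 39.0 CPM in control (log2 fold change -0.57, SE 0.11, adjusted p = 0.0133, edgeR). TDG did not pass without cadmium replicate 1 (adjusted p = 0.0910) or without cadmium replicate 2 (0.0669). OGT, a glycosyltransferase that binds TET proteins, had 185 and 186 CPM with cadmium, against 140 and 166 CPM in control, and did not pass (adjusted p = 0.0885), though it did without control replicate 2 and with no filter on low counts.

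Of 13 tested genes that make or use 2-oxoglutarate, succinate or fumarate, which feed or inhibit TET enzymes, 1 rose, 2 fell and 10 did not pass, with a list median of -0.14. IDH1, which makes 2-oxoglutarate in the cytosol, rose by 0.61 (adjusted p = 0.0266). The fumarase gene FH fell (log2 fold change -0.39, adjusted p = 0.0202), and IDH3B, a subunit of the mitochondrial NAD-dependent enzyme, fell by 0.31 (adjusted p = 0.0345). These calls were lost without cadmium replicate 1 (adjusted p ranging from 0.0516 to 0.280) and without cadmium replicate 2 (0.103 to 0.125). IDH3B also missed the threshold without control replicate 1 (0.0582) and with libraries scaled by their total alone (0.0644).

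UHRF1 and DNMT1 transcripts are more abundant in S phase, so genes of replication were read beside them. Of 20 tested S phase and proliferation genes 1 rose, 2 fell and 17 did not pass, with a list median of -0.12. CDT1, a replication licensing factor, rose by 0.51 (adjusted p = 0.0258), CCNA2, encoding cyclin A, fell (log2 fold change -0.50, adjusted p = 0.0158) and TYMS, encoding thymidylate synthase, fell by 0.34 (adjusted p = 0.0490). MKI67 had 454 and 486 CPM with cadmium, against 537 and 499 CPM in control (log2 fold change -0.14, adjusted p = 0.261). E2F1 had 176 and 155 CPM with cadmium, against 157 and 196 CPM in control, with overlapping groups (adjusted p = 0.648). The RPKM of UHRF1 was 0.760 and 0.813 times that of MKI67 with cadmium, against 0.925 and 0.992 times in control, with no overlap. For this ratio the exact two-sided permutation test gave p = 0.333, the smallest that 2 libraries against 2 allow. The 3 calls were lost without cadmium replicate 1 (adjusted p ranging from 0.0644 to 0.201), CCNA2 and TYMS without cadmium replicate 2 (0.0538 to 0.242), and CDT1 and TYMS without control replicate 1 (0.0507 to 0.141). The log2 fold change of CDT1 was 0.32 without cadmium replicate 1, and that of TYMS was -0.21 without control replicate 1. TYMS also missed the threshold with DESeq2 size factors (0.0506), libraries scaled by their total alone (0.0898) and the stricter filter (0.0743). The part of cell cycle in the UHRF1 result was not tested.

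**Figure D4:**
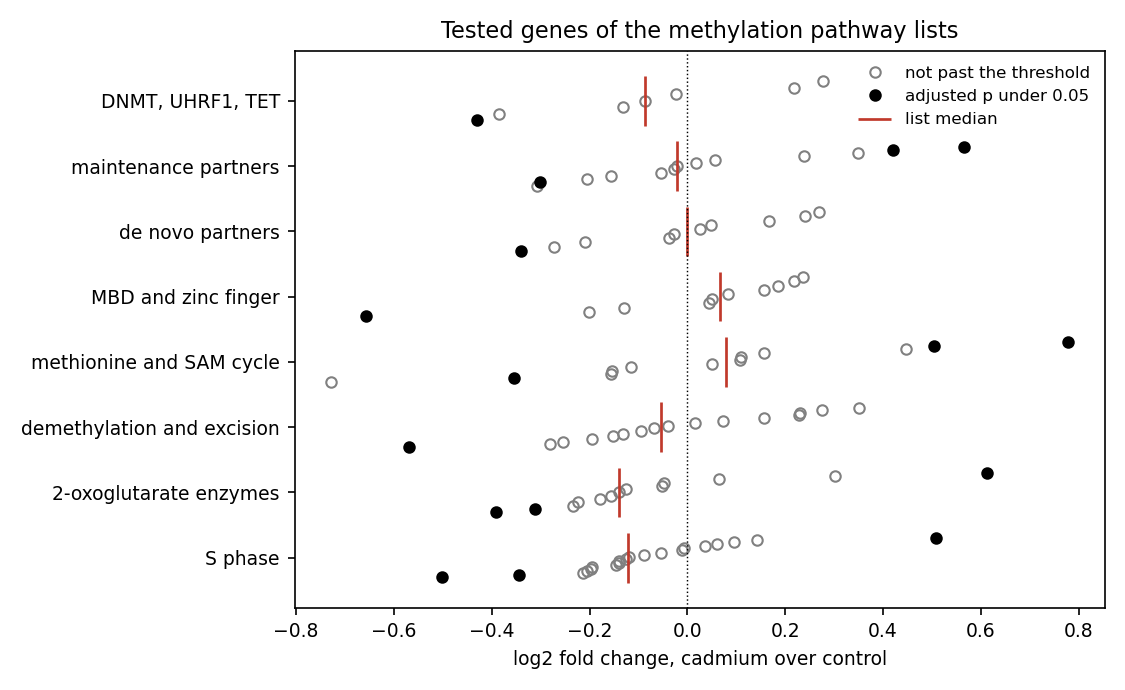
Log2 fold change, cadmium over control, of each tested gene in 8 lists, with black points for adjusted p under 0.05, open points for the rest and red lines for list medians. List medians lie between -0.14 and 0.079, and the points that passed stand on both sides of 0 except among the 7 genes themselves, de novo partners, MBD and zinc finger genes and excision genes, where the single call is lower.

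By a rule that took, for each of the 7 genes, the 3 genes with the most similar pattern across the 4 libraries, the nearest to UHRF1 were LSM10, HCCS and MAGOH. Likeness was the root mean square distance of log2 CPM centred on each gene's mean, over 4 libraries and 10784 genes with a mean of at least 5 CPM, and was 0.018 to 0.023 for these 3. The nearest to TET3 were JPH2, RHBDD3 and RUVBL1 (distances 0.013 to 0.024). The nearest to DNMT1 were RPL28, ORC6 and SCML1 (0.0025 to 0.0063), to DNMT3A MLXIP, CDS2 and TOB1 (0.010 to 0.012) and to DNMT3B MAFG, ZNF526 and TTYH3 (0.0034 to 0.011). The nearest to TET2 were RRM2B, NRP1 and TMEM99 (0.011 to 0.017) and to TET1 ERI1, TMEM170A and FARP2 (0.041 to 0.047). With only 4 points such likeness is a description of these libraries.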

How the data were processed

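RNA was measured in 2 cadmium and 2 control libraries of BEAS-2B cells. Per the submitters' processing notes, STAR 2.4, DESeq2 and DESeq were used with the build hg19 (GRCh37), without the role of each. Which program counted reads, on which annotation and strand, is not given in the sources used here. Per the file headers, each library's table holds read counts in whole numbers, 1 row per RefSeq gene, and RPKM. Tables were joined by RefSeq identifier, since some symbols differed between them. Gene positions are the start and end that each row carries, and where a row merges transcripts they need not span all of them. The authors' comparison table holds, per the file headers, mean RPKM, a log2 ratio (read as log2 from its values), p-values and adjusted p-values. Reads per RPKM were constant between libraries to within 0.659% for 6 of the genes and 3.16% for DNMT3A, whose row merges 4 transcripts.

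Counts were analysed with R 4.3.3 and edgeR 4.0.16: filterByExpr, TMM and the robust quasi-likelihood test with the group alone, adjusted by Benjamini-Hochberg over 13663 genes. SE and intervals were derived from the F statistic. RPKM was used for levels, shares and ratios. The procedure was tested on simulated data with changes larger than those of the members, so its sensitivity to changes of their size was not tested. The fit was repeated with DESeq2 size factors, with library totals alone, unfiltered, with at least 5 CPM in 2 libraries (the stricter filter), with a replicate block, without each library in turn, and with limma-voom (limma 3.58.1) or DESeq2 1.42.0 in its place. The members and lists were chosen with earlier results of these data known. Named genes were the members, up to 4 passing genes per list with the largest change (or, with none passing, the 2 of smallest p), the 3 nearest patterns per member and MT2A, and other list members were picked after their values were seen. Some list members are counted but not reported here by name. Libraries of one group differed beyond sampling noise (chi-square per gene of 7.72 for cadmium and 11.8 for control).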

Additional observations from a re-analysis of the deposited data

How the results depend on the processing

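No member was called higher under any alternative run. Members called lower numbered 1, and 2 with the replicate block, with no filter and with the crossed pairing of replicates. Leaving out 1 library gave 0 to 2 lower members. Over all genes, 1209 were called higher and 1046 lower. Leaving out 1 library gave 369 to 1977 higher and 235 to 1791 lower genes. With libraries scaled by their total alone, 1445 were higher and 682 lower, so 67.9% of calls were higher, against 53.6%. DNMT1 turned to 0.035 on library totals alone and 0.015 under the stricter filter, TET1 to 0.082 without cadmium replicate 1 and 0.042 without control replicate 2, and TET2 to 0.17 without control replicate 1 (-0.34 without control replicate 2), and the cause was not tested. The labels give no shared batch for replicate numbers. Deviations from the group means were weakly and negatively correlated between same-numbered libraries (r = -0.27 over 10772 genes). The replicate block added TET3 to the calls (adjusted p = 0.0486) and gave 1073 higher and 811 lower genes. It also added COL1A1 (0.0406) and H19, and lost HDAC1 (0.0692), AHCYL2 (0.0618), IDH3B (0.0575), L3MBTL1 (0.0556) and ITGAM (0.0781). The crossed pairing, added after the data were seen, gave 1551 higher and 1471 lower genes. UHRF1 missed the threshold only without cadmium replicate 1 among the settings run, with log2 fold changes from -0.44 to -0.37 (adjusted p 0.00102 to 0.0322) where all 4 libraries were kept. Depth limits TET1 most, with 53 reads in control replicate 2.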

Other observations

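Genes whose silence depends on DNA methylation were mostly not detected in either group. Of 32 germline genes that somatic cells keep methylated, 31 fell below the filter and 24 had 0 reads in every library, among them MAGEA4, DAZL and DDX4. The list held 52 and 19 reads in the cadmium libraries and 28 and 5 in the controls. In the shallowest library 0 reads allow up to 0.356 CPM, so low levels were not detectable at this depth. STAG3, a cohesin subunit of meiosis and the 1 gene tested, had 27 and 9 reads with cadmium and 8 and 3 in control, and did not pass (log2 fold change 1.22, adjusted p = 0.142, edgeR).

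Of 21 imprinted genes, which are expressed from 1 parental copy under methylation marks, 14 were tested, 4 rose, 0 fell and 10 did not pass, with a median log2 fold change of 0.15. Over all genes tested, 8.85% were called higher and 7.66% lower. The list was chosen with earlier results of these data known, so its count beside these shares is a description and no test. CDKN1C, a cyclin-dependent kinase inhibitor, had 222 and 113 reads with cadmium and 27 and 10 in control. Its level was 7.25 and 7.15 CPM with cadmium, against 1.04 and 1.19 CPM in control (log2 fold change 2.72, SE 0.26, adjusted p = 0.00234). The zinc finger gene PLAGL1 rose by 0.67 (adjusted p = 0.0153), L3MBTL1, a chromatin reader, by 0.61 (adjusted p = 0.0342) and DIRAS3, a small GTPase, by 2.67 (adjusted p = 0.0183), from 41 and 14 reads with cadmium and 4 and 2 in control. H19, a noncoding RNA, had 3.14 and 2.09 CPM with cadmium, against 29.2 and 8.79 CPM in control, and did not pass (log2 fold change -2.89, adjusted p = 0.0882). H19 was called lower with DESeq2 (2 genes of the list higher and 1 lower), with limma-voom (4 and 1), without control replicate 1 (5 and 2) and without control replicate 2 (5 and 1). DIRAS3 and L3MBTL1 did not pass without cadmium replicate 1 (adjusted p from 0.175 to 0.178), L3MBTL1 and PLAGL1 without cadmium replicate 2 (0.115 to 0.220), and DIRAS3 without control replicate 1 (0.108). With DESeq2, L3MBTL1 did not pass (0.0756) and DIRAS3 had no adjusted p. Methylation itself was not measured, so no relation between these transcripts and UHRF1, DNMT or TET levels was tested.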
